A study of Oryza sativa with 21 samples.

Results

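OE-3 is a transgenic rice line that overexpresses NRP1, and its 3 leaf libraries were compared here with the 3 libraries of the wild type (WT), 6 of the 21 libraries of the study. The comparison covered the 21044 genes that passed a count filter, of 91080 identifiers in the deposited table. The leaf was the second from the top, cut in the morning from plants at heading that grew in a field. WT carries no transgene, and the study also holds the overexpression (OE) lines OE-2 and OE-4 and 3 lines edited with CRISPR, named C-13, C-14 and C-16, with 3 libraries per line. OE-3 is 1 transgenic line, so an effect of NRP1 and an effect of anything else that sets this line apart cannot be told apart within it. For that reason OE-3 was also compared directly with the mean of OE-2 and OE-4. The promoter that drives NRP1 in these lines is not given in the sources used here, and the labels do not say whether the 3 libraries of a line came from separate plants.

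The study's title names NRP1 a negative regulator of photosynthesis. In a leaf, light is caught by the antenna proteins and turned into chemical energy by the photosystems and the electron carriers between them, and the Calvin-Benson cycle uses that energy to fix carbon. The fixed carbon leaves the cycle either as starch, which is stored in the chloroplast by day and broken down at night, or as sucrose, which is made in the cytosol and loaded into the phloem. Aquaporins are membrane channels for water; the PIP proteins sit in the plasma membrane, where some also pass carbon dioxide, and the TIP proteins sit in the vacuole membrane.

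The libraries held 14890067, 16201808 and 16671286 counted reads in OE-3 and 18250090, 17516653 and 13879204 in WT (replicates 1 to 3 of each). Levels are given as CPM, the reads of a gene at a common library size after TMM scaling, and in every list of values the libraries stand in the order of their replicate numbers. OE-3 replicate 1 and WT replicate 3 stood apart. Among 16343 genes of at least 2 CPM, 421 were more than 2-fold lower in OE-3 replicate 1 than in both other OE-3 libraries, against 51 and 24 in those libraries. The same count was 372 in WT replicate 3. On the second principal component of all 21 libraries, which held 16.8% of the variance, these libraries were the extremes, at 76.93 and -51.65. The median SD of log2 CPM between libraries of a line was 0.2 in OE-3 and 0.192 in WT, against 0.119 to 0.175 in the other lines. Results are therefore given with and without OE-3 replicate 1, and calls that needed WT replicate 3 are named.

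The leaf label was checked against the rubisco activase locus RCA (OS11G0707000), which was at 51300, 61500 and 47900 CPM in WT and 55500, 57600 and 54400 in OE-3. Markers of other organs were low or missing. The root marker RCc3 and the meristem gene OSH1 had 0 reads in WT and in OE-3, and the cell division genes CYCB1;1 and CDKB2 were under 0.5 CPM in each of these libraries. PCNA, also listed as a marker of dividing cells, was expressed, at 7.91 to 10.1 CPM in WT and 8.31 to 10 in OE-3. The summed level of the 3 panicle and flower markers was 16.1 to 18.4 CPM in WT and 11.4 to 14.8 in OE-3. Nearly all of it came from the locus listed as MADS1. The guard cell marker SLAC1 was at 30.2 to 33.4 CPM in WT and 25.7 to 32.7 in OE-3. In whole leaf tissue, fewer cells of a type and less RNA per cell cannot be told apart.

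The overexpressed gene, NRP1 (OS07G0471900), served as the check of the OE-3 label; its locus was taken from general knowledge. It stood at 2.45, 1.93 and 3 CPM in WT and at 398, 344 and 353 CPM in OE-3. The groups were far apart, and all 3 OE-3 libraries carried the transcript at a similar level. The log2 fold change was 7.22 (SE 0.16, edgeR quasi-likelihood test, Benjamini-Hochberg adjusted p = 1.76e-16), and 7.16 without OE-3 replicate 1. OE-3 did not pass the test against the mean of OE-2 and OE-4 in NRP1 (log2 difference 0.21, SE 0.1, edgeR adjusted p = 0.181).

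Of the 21044 genes tested, 3971 were called in OE-3 against WT, which is 18.9%, where called means an edgeR adjusted p below 0.05. Of these, 1644 were higher in OE-3, or 7.81% of the genes tested, and 2327 were lower, or 11.1%. The median log2 fold change was 0.56 among the genes called higher, -0.71 among those called lower and 0.01 over all genes tested. The genes called lower reached larger changes: 711 of them changed by at least 1 on the log2 scale, against 261 called higher. OE-3 replicate 1 was the lowest of the 3 OE-3 libraries in 85.9% of the genes called lower, and the highest in 76.5% of those called higher. Among genes not called, it was the lowest or the highest of the 3 in 72%. The CPM of OE-3 and WT did not overlap in 3696 of the 3971. Over all genes tested, 15.5% had no overlap with OE-3 higher and 16.6% with OE-3 lower. Lack of overlap was also part of a rule by which genes were named, so it is no separate support for those genes.

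Without OE-3 replicate 1, 502 genes were called higher, 2.34% of those tested, and 1065 lower, 4.97%. Among the 3971 genes, 1541 were called again in the same direction, 489 higher and 1052 lower. Leaving out WT replicate 3 gave 1876 calls. A total of 1364 genes was called with all libraries and with each of the 6 libraries left out in turn, 412 of them higher and 952 lower. These fits share 1 estimate of the spread among all 7 lines, which vary less on average than OE-3 and WT. With a variance of its own for each line, limma's voom called 2020 genes, or 9.6%. With the 6 libraries of OE-3 and WT alone, edgeR called 161 genes of 19596 tested, or 0.822%, and 159 of them were among the 3971.

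**Figure D1:**
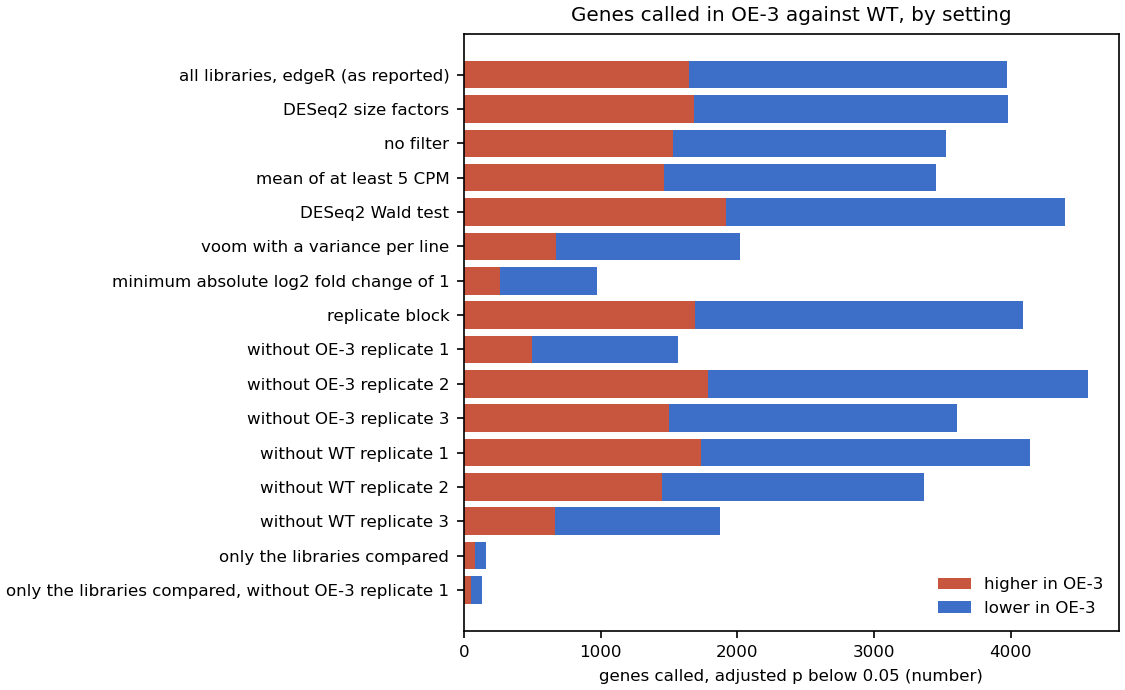
Number of genes called in OE-3 against WT at an adjusted p below 0.05 under each setting, with genes higher in OE-3 in red and genes lower in blue. The count is 3971 with all libraries, 1567 without OE-3 replicate 1, 1876 without WT replicate 3 and 161 when the 6 libraries compared are fitted alone.

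The genes were read through 35 lists of leaf functions and markers with 455 members, of which 385 passed the filter. Among the 385, 48 were called higher and 32 lower, so 20.8% of the tested members were called, near the 18.9% of all genes. The share called rose with the level of a gene. In the fifth of genes with the highest levels, 12.1% were called higher and 15.4% lower. Aquaporins had 6 of 12 tested members higher and none lower, and starch metabolism 9 of 14 lower and none higher. The photosystem list had 5 of 17 higher, the electron carrier list 4 of 7 and the reactive oxygen list 6 of 18, with none lower; without OE-3 replicate 1, PsbS2 was the only one of these still called. Without OE-3 replicate 1, 29 of the 80 called members were called again with the same sign, 13 higher and 16 lower. Without WT replicate 3, 35 of the 80 were. A total of 22 members, 12 higher and 10 lower, was called with each of the 6 libraries left out in turn. Only 3 members, RBCS5, PIP1;2 and TIP1;1, were called with the 6 libraries fitted alone.

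**Figure D2:**
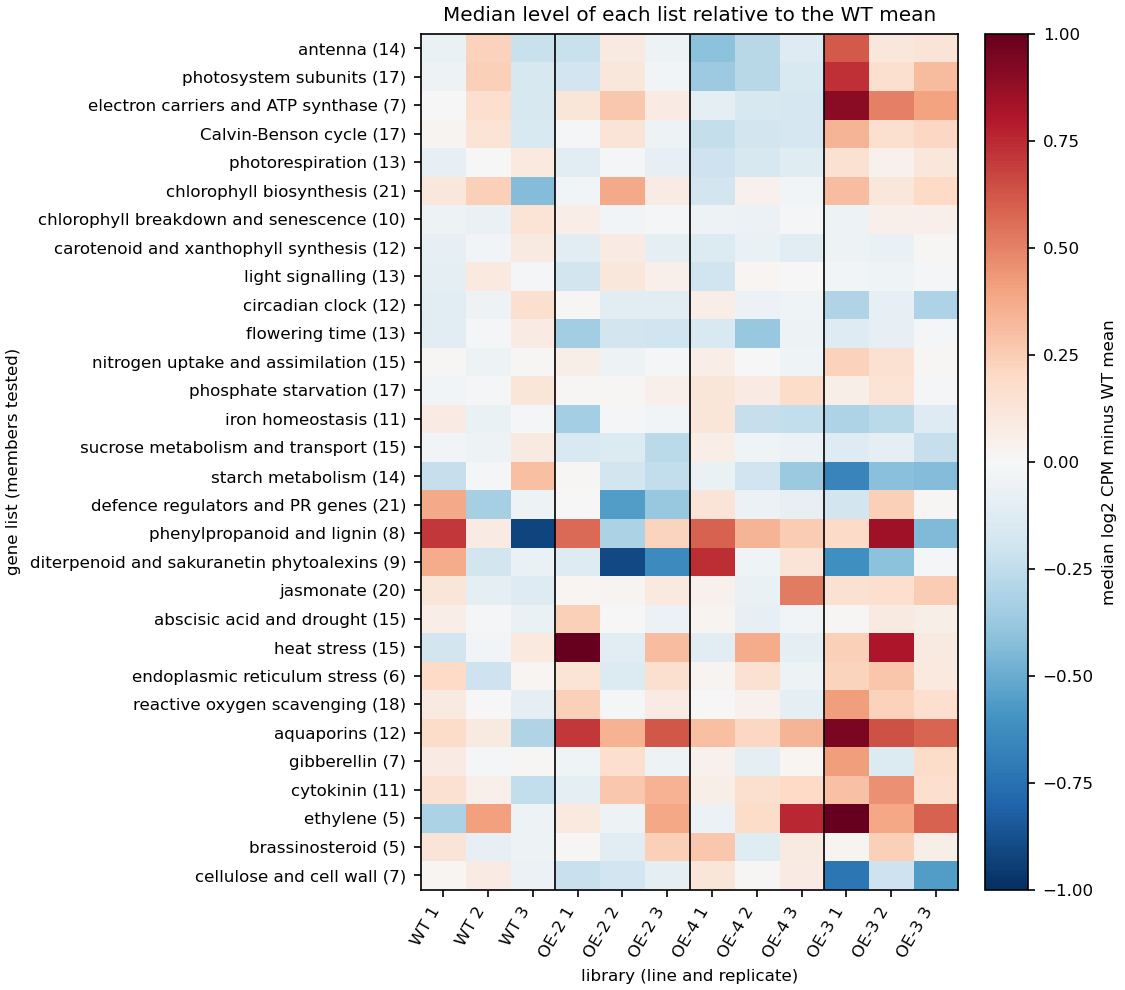
Median over each list's tested members (number in brackets) of log2 CPM minus the mean of the WT libraries, for the 12 libraries of WT and the OE lines, for lists with at least 5 tested members; the colour scale ends at -1 and 1. Aquaporins stand at 0.94, 0.64 and 0.58 and starch metabolism at -0.66, -0.42 and -0.43 in the 3 OE-3 libraries, while antenna and photosystem subunits are highest in OE-3 replicate 1.

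Among aquaporin genes, 6 of 12 tested members rose in OE-3 and none fell, beside 7.81% of all genes called higher. Of 15 listed members these 12 passed the filter, and all 12 had a positive log2 fold change, with a median of 0.7. The 6 were 4 plasma membrane and 2 vacuole membrane channels, and each stayed called when any 1 of the 6 libraries was left out. With the 6 libraries fitted alone, PIP1;2 and TIP1;1 were called and the other 4 were not. PIP1;2 (OS04G0559700), a plasma membrane channel, was at 63.2, 52.2 and 42.8 CPM in WT and at 122, 105 and 97.2 CPM in OE-3. Every OE-3 library was above every WT library, and the log2 fold change was 1.03 (SE 0.15, edgeR adjusted p = 0.000293).

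PIP2;2 (OS02G0629200), of the other plasma membrane subfamily, was at 70.7, 66.1 and 49.1 CPM in WT and at 118, 125 and 97.5 in OE-3 (log2 fold change 0.87, SE 0.12, edgeR adjusted p = 0.000168). PIP2;1 (OS07G0448800) was at 942, 822 and 506 CPM in WT and at 1400, 1580 and 1170 in OE-3 (log2 fold change 0.87, SE 0.18, edgeR adjusted p = 0.00334). In both genes the OE-3 and WT libraries did not overlap, and WT replicate 3 was the lowest library. TIP1;1 (OS03G0146100), a channel of the vacuole membrane, was at 120, 104 and 99.2 CPM in WT and 224, 202 and 163 in OE-3 (log2 fold change 0.87, SE 0.15, edgeR adjusted p = 0.001).

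PIP1;1 (OS02G0666200) and TIP2;2 (OS06G0336200) also rose, with log2 fold changes of 0.55 and 0.59 and no overlap between the groups. PIP1;3, TIP1;2, PIP2;7, PIP2;4, PIP2;6 and TIP4;1 did not pass the test, with log2 fold changes of 0.38 to 0.82. The list's median without OE-3 replicate 1 was 0.56. Against WT, the list's median was 0.61 in OE-2 and 0.21 in OE-4, where 2 members and 0 members were called higher; these comparisons use the same WT libraries. Directly against the mean of OE-2 and OE-4, 3.5% of all genes tested were called higher in OE-3 and 6.03% lower. In that comparison TIP1;1 was higher in OE-3 by 0.49 (SE 0.13, edgeR adjusted p = 0.0223) and TIP2;2 by 0.47 (SE 0.12, edgeR adjusted p = 0.0245). Neither was called there without OE-3 replicate 1. Aquaporins are a family of similar sequences, and how reads shared between copies were counted is not given in the sources used here.

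**Figure D3:**
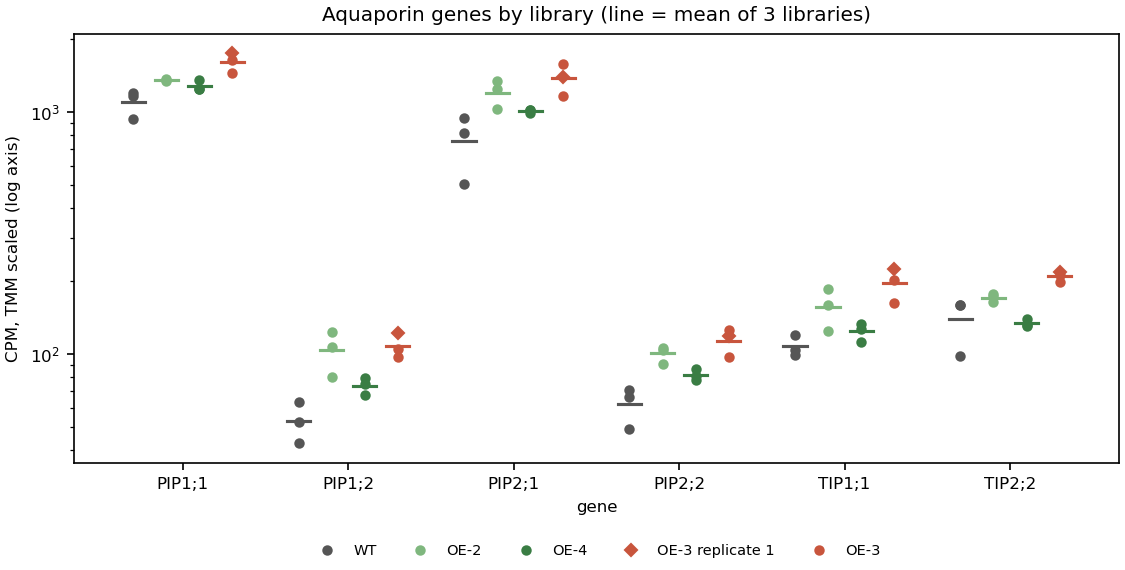
CPM (log axis) of the 6 aquaporin genes called higher in OE-3 in each library of WT, OE-2, OE-4 and OE-3; points are libraries, short lines are means of 3 libraries, and a diamond marks OE-3 replicate 1. All OE-3 points lie above all WT points in each gene, as they do in 15.5% of all genes tested. The OE-2 mean lies between the WT and OE-3 means.

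Among starch metabolism genes, 9 of 14 tested members fell in OE-3 and none rose, beside 11.1% of all genes called lower. The median log2 fold change of the list was -0.5, and none of the 9 was called with the 6 libraries fitted alone. The genes that fell covered the committed step (subunits of ADP-glucose pyrophosphorylase), chain elongation (starch synthases), branching, and also GWD1, a glucan water dikinase that opens starch to breakdown. BEIIa (OS04G0409200), a branching enzyme, was at 65.4, 95.9 and 181 CPM in WT and at 22.2, 44.5 and 33.3 CPM in OE-3. The groups did not overlap, WT replicate 3 was the highest library, and the log2 fold change was -1.77 (SE 0.3, edgeR adjusted p = 0.000951).

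PHO1 (OS03G0758100), the plastid starch phosphorylase, was at 11.4, 17.7 and 44.5 CPM in WT and at 9.79, 6.31 and 7.67 CPM in OE-3. The log2 fold change was -1.63 (SE 0.4, edgeR adjusted p = 0.00912), but the fall rested on WT replicate 3 and was not called without it. The starch synthase gene SSIIb (OS02G0744700) was at 181, 227 and 250 CPM in WT and 119, 165 and 130 in OE-3 (log2 fold change -0.67, SE 0.13, edgeR adjusted p = 0.00193). GWD1 (OS06G0498400) was at 321, 402 and 520 CPM in WT and 252, 289 and 278 in OE-3 (log2 fold change -0.6, SE 0.12, edgeR adjusted p = 0.00271). In SSIIb and GWD1 every OE-3 library was below every WT library.

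BEIIa, SSIIb and GWD1 stayed called with each of the 6 libraries left out in turn. The starch synthase gene SSI (OS06G0160700) was at 192, 326 and 478 CPM in WT and 194, 171 and 155 in OE-3, so the groups overlapped through WT replicate 1 (log2 fold change -0.94, SE 0.22, edgeR adjusted p = 0.00677). It was not called without WT replicate 3. Among the pyrophosphorylase subunits, AGPS2 (OS08G0345800) had a log2 fold change of -0.51, AGPL3 (OS03G0735000) of -0.5 and AGPL2 (OS01G0633100) of -0.42, and all 3 calls ended without OE-3 replicate 1. AGPL2 was also not called without WT replicate 3, nor AGPS2 without WT replicate 2. The branching enzyme gene BEI (OS06G0726400) had a log2 fold change of -0.31, and its call ended without OE-3 replicate 3, WT replicate 2 or WT replicate 3.

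In all, 6 of the 9 were called without OE-3 replicate 1, where the list's median was -0.46, and 5 of the 9 without WT replicate 3. The members that did not pass were AGPL1, GBSSII, AGPS1, BEIIb and ISA1, with log2 fold changes from -0.79 in AGPL1 to 0.61 in ISA1. WT itself was uneven in this list, with library medians of -0.23, -0.01 and 0.3 relative to the WT mean. Against the same WT libraries, the list's median was -0.23 in OE-2 and -0.26 in OE-4, so part of the fall was shared with those lines. Directly against the mean of OE-2 and OE-4, 5 members were lower in OE-3 and the list's median difference was -0.3. In this list BEIIa had the largest of the called differences after that of AGPS1, at -1.24 (SE 0.27, edgeR adjusted p = 0.0134); it was at 63.8, 66.4 and 71.8 CPM in OE-2 and 116, 91.4 and 69.7 in OE-4. AGPS1 (OS09G0298200) differed by -1.58 (SE 0.32, edgeR adjusted p = 0.00996), and this gene was higher in OE-2 than in WT, by 2.22 on the log2 scale. None of the 5 was called in this direct comparison without OE-3 replicate 1.

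**Figure D4:**
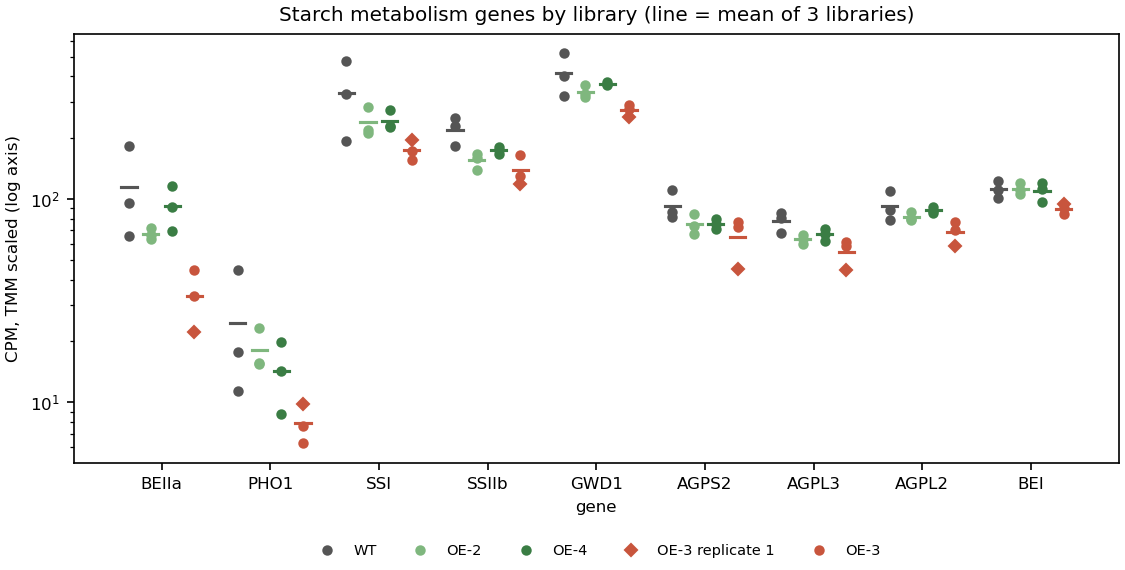
CPM (log axis) of the 9 starch metabolism genes called lower in OE-3 in each library of WT, OE-2, OE-4 and OE-3; points are libraries, short lines are means of 3 libraries, and a diamond marks OE-3 replicate 1. The OE-3 mean is the lowest of the 4 lines in every gene, and in BEIIa, PHO1 and SSI the WT libraries spread more widely than the OE-3 libraries.

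In the sucrose list, 4 of 15 tested members fell and 1 rose, beside 11.1% lower and 7.81% higher over all genes. The list's median log2 fold change was -0.22. Against the same WT libraries it was -0.24 in OE-2 and -0.03 in OE-4. The list's median difference of OE-3 from the mean of those lines was 0.01. SPS1 (OS01G0919400), a sucrose phosphate synthase that makes the precursor of sucrose, was at 50.7, 62.8 and 69.1 CPM in WT and at 13.5, 46.3 and 23 CPM in OE-3. The OE-3 libraries were all below WT but differed among themselves more than 3-fold, with replicate 1 the lowest. The log2 fold change was -1.14 (SE 0.26, edgeR adjusted p = 0.00605), and -0.81 without OE-3 replicate 1, where it was still called. TPS1 (OS05G0518600), which makes the sugar signal trehalose 6-phosphate, was at 67.8, 65.7 and 84.7 CPM in WT and 37.3, 52.6 and 52.6 in OE-3 (log2 fold change -0.61, SE 0.13, edgeR adjusted p = 0.00366). SUT4 (OS02G0827200), a sucrose transporter, was at 23.3, 21.3 and 24.4 CPM in WT and 15.4, 19 and 16.5 in OE-3 (log2 fold change -0.44, SE 0.1, edgeR adjusted p = 0.00515).

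SPS1, TPS1 and SUT4 were called with each of the 6 libraries left out in turn. SPS8 (OS08G0301500), another sucrose phosphate synthase, had a log2 fold change of -0.48 and was not called without OE-3 replicate 1 or WT replicate 2. The gene that rose was cFBP (OS01G0866400), the cytosolic fructose bisphosphatase of the sucrose pathway, with a log2 fold change of 0.28; its call ended with any library left out except OE-3 replicate 3. Against the mean of OE-2 and OE-4, SPS1 was lower by 0.8 on the log2 scale (log2 difference -0.8, SE 0.23, edgeR adjusted p = 0.0363), and TPS1 did not pass the test (-0.12, SE 0.11, edgeR adjusted p = 0.535).

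Among photosynthesis genes, 13 of 55 rose and 2 fell in OE-3, beside 7.81% higher and 11.1% lower over all genes. In the fifth of genes with the highest levels, from 40.2 CPM, 27.5% were called, 12.1% higher and 15.4% lower. Most of the antenna and Calvin-Benson genes were at such levels. Over the antenna, photosystem, electron carrier and Calvin-Benson lists, 51 of 55 tested members had a positive log2 fold change, with a median of 0.35. OE-3 replicate 1 was the highest OE-3 library in 43 of the 55, beside 76.5% of all genes called higher. Without it the median was 0.18 and 3 members, PsbS2, FBP1 and RBCS5, were called, all higher. The antenna list had library medians of 0.61, 0.11 and 0.13 relative to the WT mean in OE-3, and -0.07, 0.23 and -0.22 in WT. Of the OE-3 libraries, replicate 1 alone lay above all WT libraries. All library medians of the CRISPR lines in these lists were also above the WT mean. They were 0.17 to 0.68 in the antenna list and 0.17 to 0.6 in the photosystem list. In the electron carrier list they were 0.23 to 0.62, and in the Calvin-Benson list 0.13 to 0.41.

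None of the 14 antenna genes was called. Lhca2 (OS07G0577600), an antenna protein of photosystem I, was at 2150, 2630 and 2050 CPM in WT and at 3740, 2690 and 2570 CPM in OE-3. OE-3 replicate 3 lay below WT replicate 2, and the log2 fold change was 0.4 (SE 0.15, edgeR adjusted p = 0.0645), or 0.21 without OE-3 replicate 1.

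In the photosystem list 5 of 17 members rose and all 17 had a positive log2 fold change, with a median of 0.41. PsbS2 (OS04G0690800), a homologue of the PsbS protein that lets excess light energy be lost as heat, was at 804, 585 and 695 CPM in WT and 1160, 1180 and 974 in OE-3. The groups did not overlap and OE-3 replicate 1 was not the highest; the log2 fold change was 0.67 (SE 0.17, edgeR adjusted p = 0.0109), and 0.63 without that library. PsbS2 was called with each of the 6 libraries left out, but not by voom with a variance for each line. The other 4 photosystem genes that rose were called only with OE-3 replicate 1 in the fit.

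PsaL (OS12G0420400), a subunit of photosystem I, was at 1250, 1580 and 1300 CPM in WT and 2270, 1710 and 1720 in OE-3 (log2 fold change 0.47, SE 0.14, edgeR adjusted p = 0.0243). PsaF (OS03G0778100), where plastocyanin docks, and PsaH (OS05G0560000) had log2 fold changes of 0.5 and 0.48. All 3 calls also ended without WT replicate 1 or WT replicate 3, and that of PsaH also without OE-3 replicate 3. The locus listed as PsbY (OS08G0119800) was at 18.9, 18.5 and 27.9 CPM in WT and 51.6, 28 and 34.1 in OE-3 (log2 fold change 0.8, SE 0.19, edgeR adjusted p = 0.0074), a level low for a photosystem subunit that puts its symbol in doubt.

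Of 7 electron carrier and ATP synthase genes 4 rose, with a median log2 fold change of 0.55 over the list. PetE (OS06G0101600), which encodes plastocyanin, was at 1640, 1910 and 1210 CPM in WT and 3220, 2210 and 2060 in OE-3. The groups did not overlap, and OE-3 replicate 1 was well above the other two (log2 fold change 0.65, SE 0.16, edgeR adjusted p = 0.0095; log2 fold change 0.43 without that library). AtpD (OS02G0750100), the delta subunit of the chloroplast ATP synthase, had a log2 fold change of 0.65, Fd1 (OS08G0104600), a ferredoxin, of 0.55 and PetC (OS07G0556200), the Rieske protein of the cytochrome complex, of 0.38. None of the 4 was called without OE-3 replicate 1. The calls of PetE, Fd1 and PetC also ended without WT replicate 3, and that of PetC without WT replicate 1.

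In the Calvin-Benson list 4 of 17 members rose and 2 fell. FBP1 (OS03G0267300), the chloroplast fructose bisphosphatase, was at 957, 1090 and 913 CPM in WT and 1540, 1220 and 1220 in OE-3. The groups did not overlap, the log2 fold change was 0.42 (SE 0.1, edgeR adjusted p = 0.00629), and the call held with each of the 6 libraries left out. The locus listed as RBCS5 (OS12G0291400), a rubisco small subunit, was at 16.1, 15.9 and 17.2 CPM in WT and 33.1, 35.4 and 37 in OE-3 (log2 fold change 1.1, SE 0.27, edgeR adjusted p = 0.00978). Its replicates were tight and it was called under each left-out library, by voom and with the 6 libraries alone. The locus was also higher in OE-2 than in the same WT libraries (log2 fold change 1.46, edgeR adjusted p = 0.00649). OE-3 differed there from the mean of OE-2 and OE-4 by -0.02 on the log2 scale. The low level for a rubisco subunit puts this symbol in doubt, and reads of near-identical copies may have been split.

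SBP (OS04G0234600), the sedoheptulose bisphosphatase, and RPI (OS07G0176900), a pentose phosphate isomerase, had log2 fold changes of 0.32 and 0.36 and were not called without OE-3 replicate 1. PRK (OS02G0698000), which remakes the carbon dioxide acceptor, went the other way, from 1760, 2070 and 2270 CPM in WT to 1290, 1710 and 1700 in OE-3 (log2 fold change -0.38, SE 0.12, edgeR adjusted p = 0.029). PRK was also lower in OE-2 than in WT (log2 fold change -0.53, edgeR adjusted p = 0.0218), and OE-3 differed from the mean of OE-2 and OE-4 by 0.01. PRK and the transketolase locus TKL2 (OS04G0266900, log2 fold change -0.56) were not called without OE-3 replicate 1 either. The calls of SBP, RPI and TKL2 also ended without WT replicate 1 or WT replicate 3, those of RPI and PRK without WT replicate 2, that of PRK without WT replicate 3, and that of TKL2 without OE-3 replicate 3. Among 13 photorespiration genes none was called, and the list's median log2 fold change was 0.1.

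Directly against the mean of OE-2 and OE-4, 32 of the 55 photosynthesis genes were higher in OE-3 and none lower, beside 3.5% higher and 6.03% lower over all genes, with a median log2 difference of 0.5. By list these were 7 antenna, 14 photosystem, 5 electron carrier and 6 Calvin-Benson genes. In the same order, the list medians against WT were -0.3, -0.25, -0.15 and -0.2 in OE-4, so OE-4 itself lay below WT. In OE-2 they were -0.04, -0.03, 0.16 and 0.03.  PsaL stood at 1210, 1470 and 1350 CPM in OE-2 and 1170, 1110 and 1280 in OE-4, below all 3 OE-3 libraries, and differed by 0.59 on the log2 scale (SE 0.12, edgeR adjusted p = 0.00949). Without OE-3 replicate 1 none of the 55 was called in this comparison. Against OE-2 alone no member of the 4 lists was called, and against OE-4 alone 9 antenna, 15 photosystem, 5 electron carrier and 8 Calvin-Benson genes were higher and 1, TKL2, was lower.

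In chlorophyll synthesis, 3 of 21 tested members rose and 1 fell, a share called that is near the 18.9% of all genes. HEMA1 (OS10G0502400), an early and rate-limiting step of the pathway, was at 23.6, 27.2 and 25.2 CPM in WT and 9.79, 19.2 and 11.9 in OE-3. The groups did not overlap and the log2 fold change was -0.89 (SE 0.2, edgeR adjusted p = 0.00609). It was called with each of the 6 libraries left out, whereas the rises of CHLG (OS05G0349700), DVR (OS03G0351200) and HEME1 (OS01G0622300), of 0.62, 0.42 and 0.41 on the log2 scale, were called with OE-3 replicate 1 and WT replicate 3 in the fit and not without either. In addition, CHLG was not called without OE-3 replicate 2, DVR without WT replicate 1 and HEME1 without OE-3 replicate 3. SGRL (OS04G0692600), a relative of the stay-green protein of chlorophyll breakdown, was at 157, 160 and 134 CPM in WT and 244, 196 and 189 in OE-3 (log2 fold change 0.48, SE 0.1, edgeR adjusted p = 0.0033), and stayed called with each library left out.

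Genes that remove reactive oxygen included 6 of 18 that rose and none that fell, beside 7.81% higher over all genes, with a median log2 fold change of 0.31. BAS1 (OS02G0537700), a chloroplast peroxiredoxin, was at 652, 677 and 484 CPM in WT and 1150, 811 and 826 in OE-3 (log2 fold change 0.62, SE 0.17, edgeR adjusted p = 0.015). FeSOD (OS06G0143000), a superoxide dismutase, the ascorbate peroxidase genes APX2 (OS07G0694700) and APX4 (OS08G0549100), MnSOD (OS05G0323900) and the catalase gene CATC (OS03G0131200) had log2 fold changes of 0.36 to 0.51. None of the 6 was called without OE-3 replicate 1, where the list's median was 0.2, and 1 of the 6, APX4, was called without WT replicate 3.

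Among hormone genes, EIN2 (OS07G0155600), the central membrane protein of ethylene signalling, fell. It was at 9.47, 14.4 and 12.3 CPM in WT and at 1.84, 8.25 and 5.54 CPM in OE-3. No library overlapped, OE-3 replicate 1 was the lowest by far, and the log2 fold change was -1.19 (SE 0.3, edgeR adjusted p = 0.00945). Without that library it was -0.81, and the call held with each of the 6 libraries left out. The other 4 tested ethylene genes were not called, and the list's median was 1, carried by low genes such as ACO1 (OS09G0451400), at 0.208, 0.626 and 0.348 CPM in WT and 1.35, 0.75 and 1.42 in OE-3 (log2 fold change 1.56, edgeR adjusted p = 0.0752).

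In the jasmonate list 4 of 20 members rose and none fell, beside 7.81% of all genes called higher. The share called either way was near the 18.9% of all genes. JAZ1 (OS04G0653000), a repressor that is itself induced by jasmonate, was at 87, 76.8 and 89.9 CPM in WT and 124, 104 and 114 in OE-3 (log2 fold change 0.43, SE 0.1, edgeR adjusted p = 0.0074). AOC (OS03G0438100), an enzyme of jasmonate synthesis, had a log2 fold change of 0.67, the receptor gene COI1b (OS05G0449500) of 0.34 and the synthesis gene OPR7 (OS08G0459600) of 0.28. JAZ1 was called with each library left out, and the other 3 were not called without OE-3 replicate 1. The calls of COI1b and OPR7 also ended without WT replicate 3, and that of OPR7 without OE-3 replicate 3 or WT replicate 2.

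Cytokinin response regulators RR9 (OS11G0143300) and RR10 (OS12G0139400) rose by 0.84 and 0.7 on the log2 scale. They were 2 of 11 tested members, a share called near the 18.9% of all genes, beside 7.81% called higher. All 11 genes of that list had a positive log2 fold change, with a median of 0.22. Against the same WT libraries the median was 0.33 in OE-2 and 0.17 in OE-4. The library medians of the CRISPR lines were 0.15 to 0.76 relative to the WT mean. RR9 was at 23.5, 19.8 and 15.8 CPM in WT and 31.1, 44.8 and 30 in OE-3, with OE-3 replicate 2 the highest. Both calls ended without OE-3 replicate 2 or WT replicate 3, that of RR10 also without OE-3 replicate 1 or WT replicate 2, and the pair are near-identical copies between which reads can be shared. GID1 (OS05G0407500), the gibberellin receptor, rose by 0.53 on the log2 scale, KS1 (OS04G0611800) of gibberellin synthesis had a log2 fold change of -0.45, and D11 (OS04G0469800) of brassinosteroid synthesis rose by 0.73 on the log2 scale. These 3 were not called without OE-3 replicate 1. The call of D11 ended also without WT replicate 2 or 3, and that of KS1 without OE-3 replicate 3 or WT replicate 2 or 3.

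HSFB2b (OS08G0546800), a heat shock factor of the repressor class, was at 5.05, 6.94 and 4.25 CPM in WT and 11.2, 12.6 and 8.73 in OE-3. No library overlapped, and the log2 fold change was 0.99 (SE 0.23, edgeR adjusted p = 0.00677), called with each library left out. The gene was also higher in OE-2 than in WT (log2 fold change 1.02, edgeR adjusted p = 0.0258), and OE-3 differed from OE-2 by -0.03. HSFB2b was 1 of 3 called members of the 15 tested heat stress genes, near the 18.9% of all genes called either way. All 3 were higher, beside 7.81% of all genes called higher. The library medians of that list were 0.24, 0.81 and 0.09 in OE-3 and 1.07, -0.11 and 0.31 in OE-2, so single libraries stood out in both lines. The other called members, HSFB2c (OS09G0526600) and HSP24.1 (OS02G0758000), had log2 fold changes of 0.64 and 0.94 and were not called without OE-3 replicate 1 or without OE-3 replicate 2. Without WT replicate 2 HSFB2c was not called, and without WT replicate 1 or 3 HSP24.1 was not called.

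In the clock list 2 of 12 members fell, against 11.1% of all genes, and the median log2 fold change was -0.26. Neither fall was called without WT replicate 3. GI (OS01G0182600), which links the clock to flowering, was at 435, 485 and 671 CPM in WT and 340, 406 and 336 in OE-3 (log2 fold change -0.56, SE 0.13, edgeR adjusted p = 0.00804). Groups did not overlap, and WT replicate 3 was the highest library. PRR73 (OS03G0284100), a pseudo-response regulator of the clock, was at 113, 134 and 148 CPM in WT and 91.2, 103 and 93.3 in OE-3 (log2 fold change -0.46), and was not called without OE-3 replicate 1 or 3 or WT replicate 2 or 3. Hd3a (OS06G0157700), which encodes a florigen, was at 58.8, 73.9 and 62.7 CPM in WT and 56, 45.7 and 47.6 in OE-3 (log2 fold change -0.39, SE 0.12, edgeR adjusted p = 0.0256). It was called without OE-3 replicate 1, and not without OE-3 replicate 2 or 3 or WT replicate 2 or 3.

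In nitrogen assimilation 2 of 15 members rose and 3 fell, beside 7.81% higher and 11.1% lower over all genes. GS1;2 (OS03G0223400), a cytosolic glutamine synthetase, was at 131, 160 and 146 CPM in WT and 88.6, 82.2 and 117 in OE-3 (log2 fold change -0.61, SE 0.14, edgeR adjusted p = 0.00603), and was called with each library left out. Its sister gene GS1;1 (OS02G0735200) had a log2 fold change of 0.43 with overlapping groups, and the ammonium transporter gene AMT1;1 (OS04G0509600) of 0.52. GDH2 (OS04G0543900), a glutamate dehydrogenase, and ASN2 (OS06G0265000), listed as an asparagine synthetase, had log2 fold changes of -0.6 and -0.36. None of these 4 was called without OE-3 replicate 1, and each was also lost without at least 1 WT library: AMT1;1 without WT replicate 1 or 2, GDH2 without replicate 3, and GS1;1 and ASN2 without replicate 2 or 3. GS1;1 was also not called without OE-3 replicate 2.

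PHO2 (OS05G0557700), a ubiquitin conjugating enzyme that restrains phosphate uptake, was at 127, 132 and 135 CPM in WT and 76.2, 95.5 and 99.7 in OE-3. WT was tight, the groups did not overlap, and the log2 fold change was -0.54 (SE 0.12, edgeR adjusted p = 0.00486), called with each library left out. The phosphate genes that rose, SPX1 (OS06G0603600, log2 fold change 0.91) and GDPD2 (OS02G0514500, from at most 0.171 CPM in WT to at most 0.812 in OE-3), were not called without OE-3 replicate 1, OE-3 replicate 2, WT replicate 1 or WT replicate 3, nor GDPD2 without OE-3 replicate 3.

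Of the iron regulators, HRZ1 (OS01G0689451) and HRZ2 (OS05G0551000), ubiquitin ligases that hold back iron uptake, had log2 fold changes of -0.54 and -0.55. HRZ1 was at 111, 121 and 153 CPM in WT and 68.2, 100 and 95.8 in OE-3, and was called without OE-3 replicate 1 but not without WT replicate 3. HRZ2 was not called without OE-3 replicate 1, OE-3 replicate 2 or WT replicate 3. OPT7 (OS03G0751100), an oligopeptide transporter gene, rose by 0.72 on the log2 scale and was not called without OE-3 replicate 1 or 3 or WT replicate 2.

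The cellulose synthase genes CESA8 (OS07G0208500) and CESA3 (OS07G0424400) had log2 fold changes of -0.73 and -0.39, the defence oxidase gene RBOHB (OS01G0360200) of -1.35 and the xanthophyll enzyme gene ZEP (OS04G0448900) of -0.58. The light signalling factor gene PIL15 (OS01G0286100) rose by 0.56 on the log2 scale and the stress factor gene NAC6 (OS01G0884300) by 0.35. These 6 were not called without OE-3 replicate 1. CESA3, ZEP, PIL15 and NAC6 were also not called without WT replicate 3, CESA3 and NAC6 without WT replicate 2, and PIL15 and NAC6 without OE-3 replicate 3 or WT replicate 1. The locus listed as MADS1, the called flower marker, had a log2 fold change of -0.43 and was called with OE-3 replicate 3 left out and with no other library left out. The phenylpropanoid, phytoalexin, endoplasmic reticulum stress, auxin, dividing cell and guard cell lists had no called member. All 9 tested phytoalexin genes had a log2 fold change at or below 0, with a median of -0.66. The library medians were -0.61, -0.41 and -0.02 in OE-3 and 0.37, -0.18 and -0.07 in WT. Against the same WT libraries, the list's median was -0.82 in OE-2, with 1 member called lower, and -0.02 in OE-4. Mean WT levels of DPF, MAS1, KSL7 and KSL10 were low, at 0.56, 0.552, 0.753 and 0.281 CPM.

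**Figure D5:**
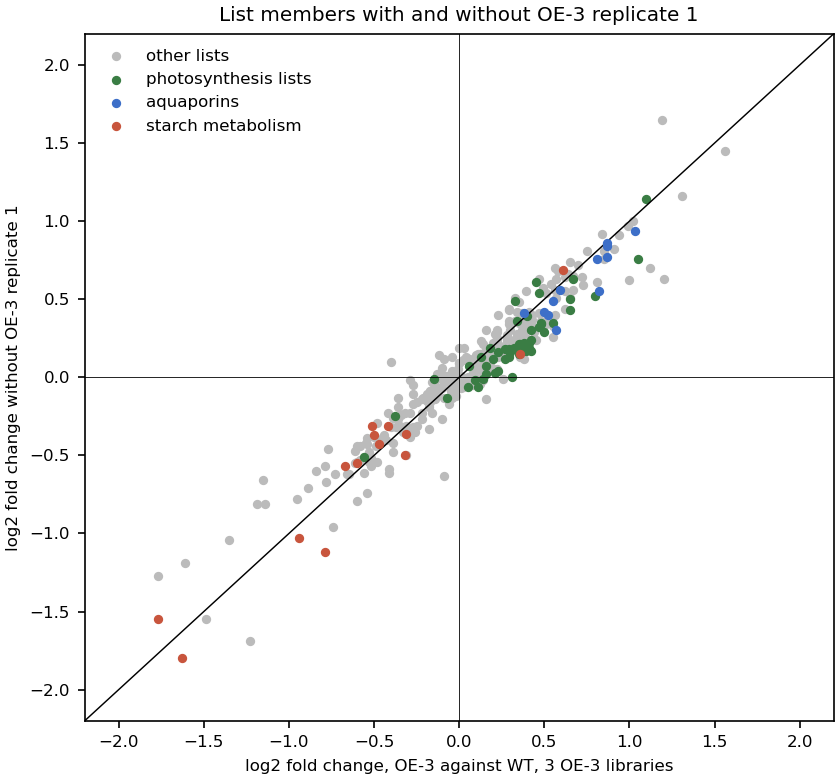
Log2 fold change of list members in OE-3 against WT with all 3 OE-3 libraries (horizontal) and without OE-3 replicate 1 (vertical); the line marks equal values, and 3 of the 385 members lie outside the axes. Photosynthesis genes lie mostly below the line on the positive side (median 0.35 with and 0.18 without), while aquaporins (0.7 and 0.56) and starch genes (-0.5 and -0.46) stay nearer to it.

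The direct comparison of OE-3 with the mean of OE-2 and OE-4 has no WT library in the contrast, although the WT libraries enter the shared estimate of the spread. It called 2004 of 21044 genes, or 9.52%, of which 736 were higher in OE-3 and 1268 lower. With the 9 libraries of these lines fitted alone it called 686. Without OE-3 replicate 1 it called 180 genes, 41 higher and 139 lower, and 179 of these were among the 2004. No list member was among the 180. Against OE-2 alone 105 genes were called, or 0.499% of those tested, and against OE-4 alone 3032, or 14.4%. OE-3 was thus separated from OE-4 in far more genes than from OE-2, and OE-4 was also the line with the least spread between libraries. Among list members, AGPS1 and CPS2 (OS02G0571100), of diterpenoid synthesis, were the 2 called against OE-2, by -2.68 (edgeR adjusted p = 0.00017) and 1.31 (edgeR adjusted p = 0.0293), and 82 were called against OE-4, 64 of them higher.

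Some identifiers were near off in 1 line and on in the other. For 9 identifiers WT had 0 reads and each OE-3 library at least 1 CPM. OS04G0190000 was at 7.73, 9.06 and 10.9 CPM in OE-3 and OS03G0597800 at 7.87, 6.69 and 6.61, means that are at least 157-fold and at least 120-fold the level that 3 reads over the WT group would give. Both were also on in OE-4, with means of 11.3 and 6.78 CPM, and nearly off in OE-2, with 0.237 and 0.0229. OE-4 had every library at 1 CPM or more for 4 of the 9 and OE-2 for 1. OS04G0510000, chosen after its values were seen, was at a mean of 4.04 CPM in OE-3 and 0.0229 in OE-2, with no reads in WT, OE-4 or the CRISPR lines.

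In the other direction, 7 identifiers were under 0.25 CPM in each OE-3 library and at 1 CPM or more in each WT library. OS01G0713900 was at 2.34, 5.23 and 4.6 CPM in WT and 0.0709, 0.125 and 0.177 in OE-3, with means of 0.67 in OE-2 and 2.9 in OE-4. OS06G0255200 fell from 15.5, 32.6 and 39.1 CPM in WT to 0.213, 2 and 0.708 in OE-3 (log2 fold change -4.86, SE 0.47, edgeR adjusted p = 2.14e-06), and was also lower in OE-2, by -3.84.

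The calls were uneven over kinds of identifier and over abundance. Among 414 tested identifiers that begin with EPlOSAG, whose kind of gene the table does not state, 106 were lower in OE-3 and 19 higher, so 25.6% were lower against 11.1% of all genes. Their median log2 CPM relative to the WT mean was -0.67, -0.2 and -0.37 in the OE-3 libraries, -0.14, -0.21 and -0.21 in OE-2 and 0, 0.08 and 0.02 in OE-4. Without OE-3 replicate 1, 65 were called lower. The share of genes called rose from 8.6% in the fifth of genes with the lowest levels to 27.5% in the fifth with the highest. The part of library quality and of abundance in the lists above was not tested.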

How the data were processed

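RNA-seq of rice leaves was analysed from 1 table of raw read counts per gene that the authors deposited, for 21 libraries of 7 lines. Tools listed in the submitters' processing notes are STAR 2.5.3a, Trim Galore, FastQC and DESeq2, with genome build IRGSP-1.0. Which counter was used, and how it handled strand and shared reads, is not given in the sources used here. No annotation of that build was used, so no coordinates or sequences are given.

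Counts were tested with edgeR 4.0.16 (R 4.3.3): filterByExpr, TMM scaling and a quasi-likelihood fit with 7 lines as groups and 14 residual degrees of freedom. Adjusted p-values follow Benjamini and Hochberg over all genes tested, with a threshold of 0.05. SE was obtained from the log2 fold change and the F statistic, as its size over the root of F. P-values of this fit rest on the spread between libraries of the same line, pooled over the 7 lines. That spread may be technical. The script was tested on simulated counts. Groups come from the sample titles. Alternatives were another scaling, other filters, DESeq2 1.42.0, limma 3.58.1 (voom), a minimum fold change, a replicate block, fewer libraries and each library left out. Replicate pairs of OE-3 and WT differed by more than counting noise (11.4 to 31 times the Poisson variance).

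Members, lists and tests were chosen with earlier results of these data known. Symbols were paired with loci from general knowledge and could not be checked against a reference: each symbol stands for the locus in the list. Named genes were list members called in OE-3 against WT and without OE-3 replicate 1, with groups not overlapping and at least 2 CPM (up to 15 each way), up to 4 members of each list by adjusted p, up to 10 list members each way that also differed from OE-2 and OE-4, and up to 2 unnamed identifiers each way. Other called list members are named to complete the account of all 80.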

Additional observations from a re-analysis of the deposited data

Results flagged for a closer look

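The values here are log2 differences of OE-3 from the mean of OE-2 and OE-4 that passed the direct edgeR test, for the named genes and all list members called against WT. Among photosynthesis genes, the locus listed as PsbY differed by 0.8, PetE by 0.63, PsaF and AtpD by 0.62 each, PsaL by 0.59, PsaH by 0.58, Fd1 by 0.57, PetC and FBP1 by 0.43 each, RPI by 0.41 and SBP by 0.39. Of genes not called against WT, the antenna genes Lhcb2, Lhca2, Lhcb5 and Lhcb3 differed by 0.56, 0.53, 0.51 and 0.5, the photorespiration gene GDCT by 0.34 and AGPS1 by -1.58. TIP1;1 and BAS1 differed by 0.49 each, AOC by 0.48, TIP2;2 by 0.47, SGRL and DVR by 0.42 each, JAZ1 by 0.33, CATC by 0.32, APX4 by 0.28 and COI1b by 0.27. Among the lower genes, BEIIa differed by -1.24, EIN2 by -1.01, SPS1 by -0.8, CESA8 by -0.57, PRR73 by -0.51, SPS8 by -0.45, PHO2 by -0.41, GWD1 by -0.36, BEI and AGPL2 by -0.3 each and SUT4 by -0.28. No list member passed the test in this comparison without OE-3 replicate 1.

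The unnamed identifiers differed more. OS04G0190000 was 2.5 and OS03G0597800 was 4.01 above the mean of the log2 levels in OE-2 and OE-4, which for both hides that OE-4 was at the level of OE-3 and OE-2 was near 0. OS01G0713900 differed by -3.37 and OS06G0255200 by -2.85. The mean also joins unlike levels of OS01G0713900, at 0.67 CPM in OE-2 and 2.9 in OE-4. OS06G0255200 was also lower in OE-2 than in WT, as given above, so its fall was shared with that line.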

How the results depend on the processing

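For OE-3 against WT, the 3971 calls became 2020 with a variance per line by voom, 972 with a minimum log2 fold change of 1, 161 with the 6 libraries alone and 132 with those and without OE-3 replicate 1, an alternative added after the data were seen. Leaving out 1 library gave 1567 to 4562. Against the mean of OE-2 and OE-4, the 2004 calls became 1189 by voom, 412 with the minimum fold change, 686 with the 9 libraries alone, and, in contrasts added after the data were seen, 105 against OE-2 alone and 3032 against OE-4 alone. Leaving out 1 library gave 180 to 3278. Other scaling, filters, and the DESeq2 test kept both counts within 1.5 times. NRP1 stayed called under every alternative run for it.

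The 143 other genes followed were the 80 called list members, the unnamed identifiers of the naming rule and members with no call to lose. All losses were among the 80. Of these, 51 lost their call without OE-3 replicate 1, 45 without WT replicate 3 and 43 by voom. With the 6 libraries alone 76 of the 80 lost it, and GDPD2 did not pass the filter there and was not tested. Genes that changed sign were not called in any case; with 1 library left out their log2 fold changes ranged from -3.86 to 2.63 in IMA1, -0.68 to 0.13 in GH3.8, -0.01 to 0.19 in PCNA, -0.59 to 0.45 in DWF4, -0.15 to 0.02 in SLAC1 and -0.01 to 0.48 in GA20ox2 (-0.02 with the 6 libraries alone and without OE-3 replicate 1). The causes were not tested.

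Replicate numbers did not pair the samples: deviations of same-numbered OE-3 and WT libraries correlated at 0.1, -0.18 and 0.06. With the number as a replicate block the counts were 4093 and 2166. The smaller fits have fewer residual degrees of freedom. At 13879204 to 18250090 reads per library, genes near 1 CPM rest on few reads, and calls were fewest there.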
